A study of Homo sapiens with 4 samples.

Results

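The transcripts of 10 genes of the BCL2 family and the inhibitor of apoptosis (IAP) family were followed in MHCC-97H cells, an established metastatic hepatocellular carcinoma (HCC) line. The genes were chosen by name and comprised 3 survival genes (BCL2, BCL2L1, MCL1), 2 effectors (BAX, BAK1), 3 BH3-only genes (BCL2L11, PMAIP1, BBC3) and 2 IAP genes (XIAP, BIRC3). They were 10 of the 58735 genes counted, and all 10 were among the 19895 genes tested, which had 10 or more reads in 1 or more of the 4 libraries. RNA-seq was performed once per condition, after 24 h with PBS or with Migs of 1 of 3 kinds. Migrasomes (Migs) are large vesicles that migrating cells leave behind, and 2 μg was given in each Mig condition. Normo-Migs came from MHCC-97H donors in normoxia and hypo-Migs from the same line in hypoxia, as the labels and the supplementary methods have it, whereas the main methods name hypoxia for both. CD147KO-Migs came from CD147-knockout MHCC-97H donors in hypoxia, CD147 being a surface glycoprotein. The treated cells were labelled wild type in all 4 libraries, so the knockout was in the donor cells only and CD147 RNA of the recipients is no check of the labels. The libraries were all labelled batch 1. Total reads on genes ranged from 33882496 to 40285223 per library. No difference here has a replicate check, and each test between 2 libraries compares those libraries and not the conditions. Since the reads carry no molecular identifiers, several can stem from 1 molecule, and the 95% intervals given cover counting error only.

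Apoptosis through mitochondria turns on contacts within the BCL2 family. Survival proteins hold the effectors BAX and BAK1 in check, and BH3-only proteins bind the survival proteins or activate the effectors directly. Once BAX or BAK1 opens the outer mitochondrial membrane, cytochrome c is released, the apoptosome forms and caspases are activated. XIAP binds and inhibits caspases, whereas BIRC3 (cIAP2) is a ubiquitin ligase of tumour necrosis factor receptor complexes and a known NF-kappaB target gene. Much of the family is controlled by phosphorylation, protein turnover and localisation, none of which is seen in RNA. Hepatocytes depend on BCL2L1 and MCL1 for survival.

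The library labelled PBS stood apart from the 3 Mig libraries across the whole series. It had 3 reads or fewer for 251 genes that had at least 100 reads in every Mig library, and no Mig library had such genes relative to the other libraries. Mitochondrial genes took 2.69% of its reads and 5.00% to 5.16% of the reads of the Mig libraries. The liver markers ALB, AFP, APOB, TTR and GPC3 had 0 reads in all 4 libraries, while KRT8 and KRT18 were abundant (105571 to 167573 and 36742 to 79098 reads) and HNF4A had 134 to 246 reads. FGB, a fibrinogen chain made by liver cells, was at 0 reads with PBS and at 561 to 832 with Migs. As a share of reads on genes, 4 of the 13 liver markers were higher in every Mig library than with PBS (FGB, HNF4A, KRT8, KRT18). SERPINA1 was lower in every Mig library, with 25 reads with PBS and 2, 9 and 10 with normo-Migs, hypo-Migs and CD147KO-Migs. Summed over 7 leukocyte markers, the reads as a share of all reads on genes (CPM, counts per 1000000) were 0.649 with PBS and 2.69 to 4.28 with Migs, with CD3E and MS4A1 at 0 reads throughout. Over 6 fibroblast markers the sums were 23.7 and 157 to 167 CPM, of which COL1A2 had at most 2 reads, and over 5 endothelial markers 3.48 and 4.28 to 5.54 CPM, of which KDR had at most 2 reads. Higher in every Mig library than with PBS were 2 of the 7 leukocyte markers (CD14 among them), 4 of the 6 fibroblast markers (COL1A1, PDGFRB, DCN, LUM) and 1 of the 5 endothelial markers, PECAM1 (0.472 CPM with PBS and 3.41 to 3.74 with Migs). Lower in every Mig library as a share of reads were PTPRC and CD68, COL1A2 and COL3A1, and the endothelial markers CDH5 (2.48 CPM and 0.868 to 1.79), VWF and TEK. Most of these rest on few reads. PTPRC had 2 reads with PBS and 0, 0 and 2 with Migs, and CD68 had 6 and 2, 1 and 0. COL3A1 had 27 reads with PBS and 14, 27 and 20 with Migs, and VWF and TEK had 7 and 11 reads with PBS. These values moved with every comparison against PBS given below, and their part in those results was not tested.

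The promoters of the 3 genes whose transcripts differed most between libraries are shown, to set their sequence beside their reads. RefSeq (GRCh38.p14) gave the 250 bases before the start of 9 of the 10 genes, without MCL1. In all, 5 motifs known for these genes' regulators or for core promoters were searched on both strands, and capitals mark the matches named here, which do not overlap each other. BIRC3 (chr11:102317234-102317483, plus strand) held 2 matches to the kappaB consensus, GGAAATCCCC at bases 199 to 190 before the start and GGAGTTCCCC at bases 135 to 126, both read on the minus strand. BCL2L11 (chr2:111120664-111120913, plus strand) held the forkhead motif GTAAACA at bases 223 to 217. BBC3 (chr19:47232668-47232917, minus strand) held the E-box motif CANNTG, which reads the same on both strands, at bases 247 to 242 and again at bases 232 to 227.
BIRC3: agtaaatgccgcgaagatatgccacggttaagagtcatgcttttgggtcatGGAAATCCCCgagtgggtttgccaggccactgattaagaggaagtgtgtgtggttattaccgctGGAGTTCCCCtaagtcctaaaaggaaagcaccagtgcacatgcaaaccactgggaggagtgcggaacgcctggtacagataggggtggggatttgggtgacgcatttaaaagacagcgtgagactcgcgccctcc
BCL2L11: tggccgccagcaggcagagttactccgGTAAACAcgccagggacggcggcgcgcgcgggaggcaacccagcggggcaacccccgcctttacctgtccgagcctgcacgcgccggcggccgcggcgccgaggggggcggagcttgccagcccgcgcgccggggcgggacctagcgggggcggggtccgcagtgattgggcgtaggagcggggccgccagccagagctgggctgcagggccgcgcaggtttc
BBC3: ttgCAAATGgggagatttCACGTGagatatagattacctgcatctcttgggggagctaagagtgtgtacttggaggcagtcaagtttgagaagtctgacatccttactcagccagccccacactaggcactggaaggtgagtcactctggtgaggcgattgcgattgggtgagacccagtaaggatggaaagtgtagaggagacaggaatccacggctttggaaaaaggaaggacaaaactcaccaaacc

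In the GENCODE 29 annotation, 34 bases of the BIRC3 sequence and 99 of the BBC3 sequence lay in exons of the gene, and the BCL2L11 sequence lay within the gene but outside its exons. Of 35116 RefSeq promoters of the same length, 9.96% held the kappaB consensus, 2.98% GTAAACA and 61.8% an E-box. Among the 9 sequences found, the kappaB consensus was in 1, GTAAACA in 1 and an E-box in 3. The GC box GGGCGG was in 5 (against 42.6% of all promoters) and the TATA box TATAAA in 1 (BCL2L1, 10.7%). A match describes the letters of these windows and is not a measured site.

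Against PBS, BIRC3 fell and BCL2L11 rose in each of the 3 Mig libraries, and the other 8 genes passed the criteria in none of them. The cut-offs were taken from the study, which applied them to DESeq2 and not to the test used here. The criteria were an adjusted p of 0.05 or less in edgeR's two-sided exact binomial test (Benjamini-Hochberg over the 19895 genes) together with a log2 fold change of 1 or more in either direction. Thus 2 of 10 genes passed in each comparison, where 27.2% of all genes tested passed after normo-Migs, 28.3% after hypo-Migs and 27.5% after CD147KO-Migs. A rise past the criteria was met by 16.5%, 17.4% and 16.6% of all genes, and a fall by 10.7%, 10.9% and 10.9%. Between Mig libraries, 0 of 10 genes passed, where 4.9% of all genes passed for hypo-Migs against normo-Migs, 5.04% for hypo-Migs against CD147KO-Migs and 4.91% for normo-Migs against CD147KO-Migs. All 10 genes had at least 159 reads in every library, and the shares of all genes depend on genes with few reads. Among genes with at least 10 reads in both libraries of a pair, 17.9%, 18.7% and 18.4% passed against PBS and 1.96%, 1.95% and 1.98% between Mig libraries, in the orders given. By the adjusted p alone, without the fold, 8, 8 and 7 of the 10 genes differed from PBS with normo-Migs, hypo-Migs and CD147KO-Migs, where 69.7%, 71.3% and 69.9% of all genes did. With library totals as scaling, these counts became 7, 6 and 6, where MCL1 was lost in all 3 and BAX with hypo-Migs. Of all 19895 genes, 13805, 14147 and 13926 passed in that setting. With a coefficient of variation of 0.1 assumed between replicates, the counts of the 10 genes became 5, 5 and 4. In that setting 8143, 8528 and 8300 of all genes passed. The 3 comparisons against PBS share 1 library and are not independent of each other.

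**Figure D1:**
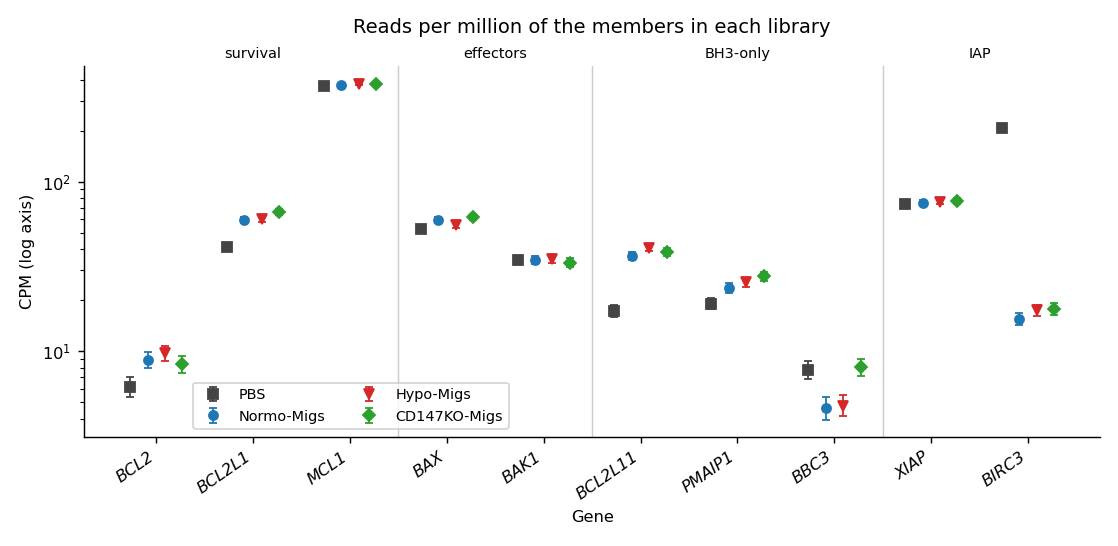
Counts per 1000000 reads on genes (CPM, log axis) of the 10 genes in the 4 libraries, 1 point per library, with 95% Wilson intervals for counting error; CPM does not correct for gene length. BIRC3 stood at 206 CPM with PBS and at 15.5 to 17.8 with Migs, whereas MCL1 and XIAP lay at nearly one level in all 4.

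Among the IAP genes, BIRC3 (ENSG00000023445, chromosome 11, 102317450 to 102339403, plus strand) had 6988 reads after PBS, against 534 after normo-Migs, 704 after hypo-Migs and 623 after CD147KO-Migs. The library labelled PBS was thus far above the Mig libraries, which lay close together at 15.5, 17.5 and 17.8 CPM against 206. The fold change was 12.9-fold lower after normo-Migs (log2 -3.69, interval -3.82 to -3.56), 11.5-fold lower after hypo-Migs (-3.52, -3.64 to -3.42) and 11.3-fold lower after CD147KO-Migs (-3.50, -3.63 to -3.39). Only 145, 154 and 165 of the genes tested fell at least as far in these comparisons. Since the RNA was taken from whole cultures, fewer cells with BIRC3 transcripts and less transcript per cell cannot be told apart. The 2 kappaB matches shown above lie in its promoter, and no binding was measured here.

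XIAP (ENSG00000101966, chromosome X, 123859724 to 123913979, plus strand), the caspase inhibitor, passed the adjusted p in no pair of libraries. It had 2506 reads after PBS, 2595 after normo-Migs, 3073 after hypo-Migs and 2695 after CD147KO-Migs, or 74.0, 75.1, 76.3 and 76.9 CPM. Its log2 fold changes against PBS were 0.07 (-0.01 to 0.15), 0.08 (-9.8e-05 to 0.15) and 0.08 (0.0048 to 0.16), so the intervals reached no further than 0.16. Per length, the order of the 2 IAP genes differed between libraries: FPKM was 26.9 for BIRC3 and 8.03 for XIAP with PBS, and 2.07 to 2.34 for BIRC3 and 8.37 to 8.45 for XIAP with Migs.

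Among the BH3-only genes, BCL2L11 (BIM; ENSG00000153094, chromosome 2, 111119378 to 111168447, plus strand), which can bind all survival proteins and activate the effectors, rose with each kind of Migs. It had 587 reads after PBS, 1252 after normo-Migs, 1647 after hypo-Migs and 1346 after CD147KO-Migs. The library labelled PBS was the lowest at 17.3 CPM, and the Mig libraries stood at 36.2, 40.9 and 38.4 CPM. The log2 fold change was 1.11 (0.97 to 1.26) after normo-Migs, 1.27 (1.13 to 1.41) after hypo-Migs and 1.17 (1.04 to 1.32) after CD147KO-Migs. In these comparisons 3281, 3058 and 3202 genes rose at least as far, so a change of this size was common against PBS. Its exons share 727 bases with MIR4435-2HG on the opposite strand, which had 560, 478, 549 and 509 reads in the same order of libraries. Whether the counting kept strands apart is not given in the sources used here, and reads in the shared bases cannot be assigned without strand.

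PMAIP1 (NOXA; ENSG00000141682, chromosome 18, 59899948 to 59904306, plus strand), which binds MCL1, was also lowest with PBS but passed the fold criterion in no comparison. It had 647, 815, 1026 and 968 reads with PBS, normo-Migs, hypo-Migs and CD147KO-Migs, or 19.1, 23.6, 25.5 and 27.6 CPM. The log2 fold changes against PBS were 0.35 (0.20 to 0.50), 0.45 (0.30 to 0.59) and 0.56 (0.42 to 0.71). BBC3 (PUMA; ENSG00000105327, chromosome 19, 47220822 to 47232766, minus strand), whose protein binds all survival proteins, had another order. It had 263 reads after PBS, 159 after normo-Migs, 192 after hypo-Migs and 282 after CD147KO-Migs. The libraries with PBS and CD147KO-Migs stood together at 7.76 and 8.05 CPM, above normo-Migs and hypo-Migs at 4.60 and 4.77 CPM. Against PBS, the log2 fold change was -0.70 (-1.001 to -0.42) after normo-Migs, -0.67 (-0.95 to -0.40) after hypo-Migs and 0.08 (-0.17 to 0.33) after CD147KO-Migs.

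Among the survival genes, BCL2 (ENSG00000171791, chromosome 18, 63123346 to 63320128, minus strand) and BCL2L1 (BCL-XL and BCL-XS; ENSG00000171552, chromosome 20, 31664452 to 31723989, minus strand) were lowest with PBS. BCL2 had 207, 307, 391 and 293 reads with PBS, normo-Migs, hypo-Migs and CD147KO-Migs, and log2 fold changes against PBS of 0.58 (0.33 to 0.85), 0.69 (0.45 to 0.95) and 0.48 (0.22 to 0.74). BCL2L1 had 1396, 2059, 2418 and 2309 reads and log2 fold changes of 0.58 (0.48 to 0.68), 0.57 (0.48 to 0.67) and 0.70 (0.61 to 0.80). Neither reached the fold criterion in any comparison. Counts per gene cannot separate the long survival form of BCL2L1 from its short pro-apoptotic form. ABALON, an antisense transcript that shares 1424 exon bases with BCL2L1, had 7, 35, 31 and 24 reads.

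MCL1 (ENSG00000143384, chromosome 1, 150574551 to 150579738, minus strand), a short-lived survival protein that binds BAK1 and BIM, had 12506, 12781, 15232 and 13265 reads in the 4 libraries. That is 369, 370, 378 and 379 CPM, the most reads of the 10 genes in every library. Its log2 fold changes against PBS were 0.05 (0.01 to 0.09), 0.07 (0.03 to 0.10) and 0.06 (0.03 to 0.10). These passed the adjusted p at this depth, but the calls turned on the scaling. With library totals alone the log2 fold changes were 0.0028, 0.03 and 0.04, and none passed (adjusted p 0.9142, 0.06416 and 0.06112 in edgeR's exact binomial test). With DESeq2 size factors the call with normo-Migs was lost as well (0.07686 in that test). Counts do not separate the long MCL1 form from shorter pro-apoptotic splice forms.

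The effectors differed little. BAX (ENSG00000087088, chromosome 19, 48954815 to 48961798, plus strand), which moves from cytosol to mitochondria when active, had 1786, 2062, 2236 and 2178 reads, or 52.7, 59.7, 55.5 and 62.2 CPM, with PBS, normo-Migs, hypo-Migs and CD147KO-Migs. Its log2 fold changes against PBS were 0.23 (0.13 to 0.32), 0.11 (0.02 to 0.20) and 0.26 (0.17 to 0.36). BAK1 (ENSG00000030110, chromosome 6, 33572547 to 33580293, minus strand), which resides in the outer mitochondrial membrane, had 1171, 1191, 1407 and 1167 reads, or 34.6, 34.5, 34.9 and 33.3 CPM. Its log2 fold changes of 0.04 (-0.07 to 0.16), 0.05 (-0.07 to 0.16) and -0.03 (-0.14 to 0.09) had intervals that included 0.

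**Figure D2:**
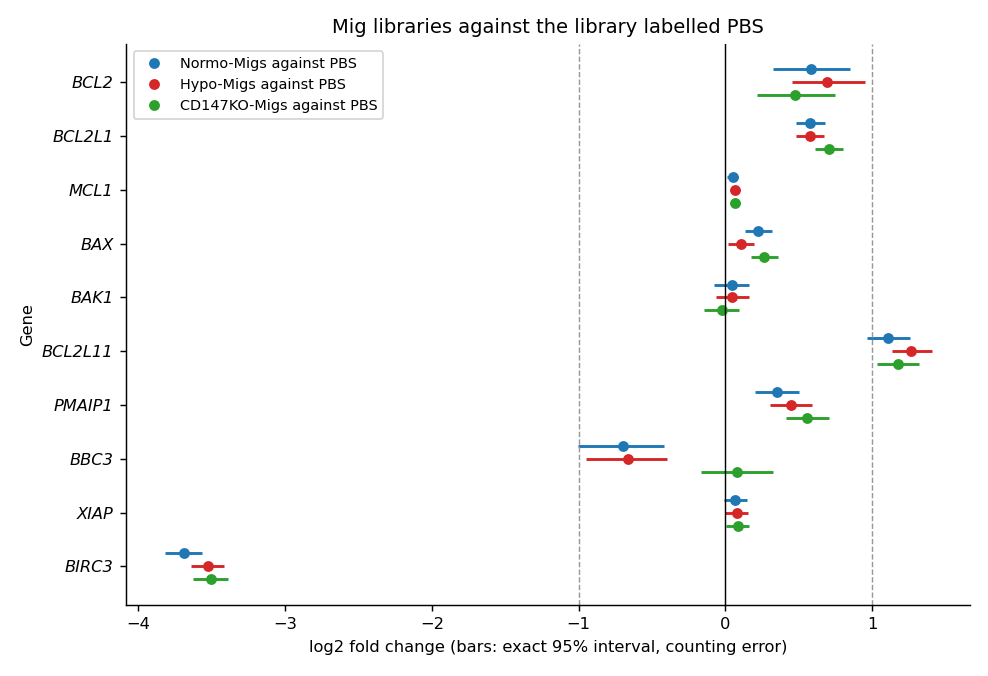
Log2 fold changes of the 10 genes in each Mig library against the library labelled PBS, with exact 95% intervals for counting error; dashed lines mark the fold criterion of 1 in either direction. BIRC3 lay at -3.69 to -3.50 and BCL2L11 at 1.11 to 1.27, and the other genes lay between the dashed lines.

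The median log2 fold change of the 10 genes against PBS was 0.15 after normo-Migs, 0.09 after hypo-Migs and 0.17 after CD147KO-Migs, beside 0.03, 0.04 and 0.03 over all genes tested. In each of these comparisons 8 of the 10 genes were higher with Migs in sign, both survival and pro-apoptotic genes among them. MCL1 and XIAP are counted there at a log2 of only 0.05 to 0.08. The share of all genes with that sign was not counted.

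By label, hypo-Migs and normo-Migs differed in the oxygen supply of the donor cells, and hypo-Migs and CD147KO-Migs in their CD147. Normo-Migs and CD147KO-Migs differed in both. None of this can be told apart here from other differences between single libraries. Between hypo-Migs and normo-Migs, none of the 10 genes differed by more than 1.12-fold. By edgeR's two-sided exact binomial test with Benjamini-Hochberg adjustment, 2 of the 10 genes passed the adjusted p alone, where 24.7% of all genes did. BCL2L11 was higher with hypo-Migs (log2 0.16, 0.05 to 0.27) and BAX lower (-0.12, -0.21 to -0.03), the latter with an adjusted p of 0.06725 in that test when scaled by library totals alone. For BIRC3, the log2 fold change was 0.16 (-0.0020 to 0.33) and the adjusted p of that test 0.1438. BCL2 stood at 8.88 CPM with normo-Migs and 9.71 with hypo-Migs, a log2 difference of 0.11 (-0.11 to 0.33). The median over the 10 genes was 0.03 in this pair, -0.01 for hypo-Migs against CD147KO-Migs and -0.05 for normo-Migs against CD147KO-Migs, beside 0, rounded to 2 decimals, over all genes in each.

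Comparing hypo-Migs with CD147KO-Migs, 3 genes passed the adjusted p alone and were all lower with hypo-Migs, where 25.2% of all genes passed in either direction and 12.7% were lower. They were BCL2L1 (log2 -0.13, -0.21 to -0.05), BAX (-0.16, -0.24 to -0.07) and BBC3 (-0.74, -1.02 to -0.48). BCL2 was 1.16-fold higher with hypo-Migs, with an interval that included 0 (log2 0.22, -0.0026 to 0.44). Between normo-Migs and CD147KO-Migs, 3 genes again passed, where 24.8% of all genes did, and all were lower with normo-Migs, as were 11.5% of all genes. They were BCL2L1 (-0.13, -0.21 to -0.04), PMAIP1 (-0.21, -0.34 to -0.07) and BBC3 (-0.78, -1.08 to -0.50). These 2 comparisons share the CD147KO-Migs library. With a coefficient of variation of 0.1 assumed between replicates, 0 of the 10 genes passed the adjusted p in any pair of Mig libraries. Of all 19895 genes, 266 passed for hypo-Migs against normo-Migs, 235 for hypo-Migs against CD147KO-Migs and 293 for normo-Migs against CD147KO-Migs. Few genes of any kind thus passed in that setting.

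BBC3 was the member with the widest spread among the Mig libraries. The 282 reads with CD147KO-Migs stood 1.68-fold above hypo-Migs and 1.72-fold above normo-Migs, with adjusted p of 9.292e-07 and 6.469e-07 in edgeR's exact binomial test, while hypo-Migs and normo-Migs differed by a log2 of 0.04 (-0.28 to 0.35). Of 2637 genes with between 0.5 and 2 times its mean reads in the Mig libraries, 3.19% had at least its ratio of 1.73 between the highest and the lowest Mig library. With a coefficient of variation of 0.1 assumed between replicates, the adjusted p in edgeR's exact test was 0.1027 against hypo-Migs and 0.08651 against normo-Migs. Over all settings tried, the adjusted p ranged from 7.286e-07 to 1 and from 3.142e-07 to 1, and 235 and 293 of all genes passed 0.05 with the coefficient of 0.1. With the same assumed coefficient, the smaller folds of BBC3 against PBS had adjusted p of 0.01588 with normo-Migs and 0.01834 with hypo-Migs in edgeR's exact test, where 8143 and 8528 of all genes passed.

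At the other end, MCL1 and XIAP were the steadiest of the 10 genes among the Mig libraries. The ratio between the highest and lowest Mig library was 1.01 for both, and 98.8% and 98.6% of genes of like read number had at least that ratio. MCL1 and XIAP, too, were singled out by that ratio. For BCL2L1, BAX, BAK1, BCL2L11, PMAIP1, BCL2 and BIRC3 the ratio was 1.05 to 1.16, met by 31.4% to 82.7% of genes of like read number.

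**Figure D3:**
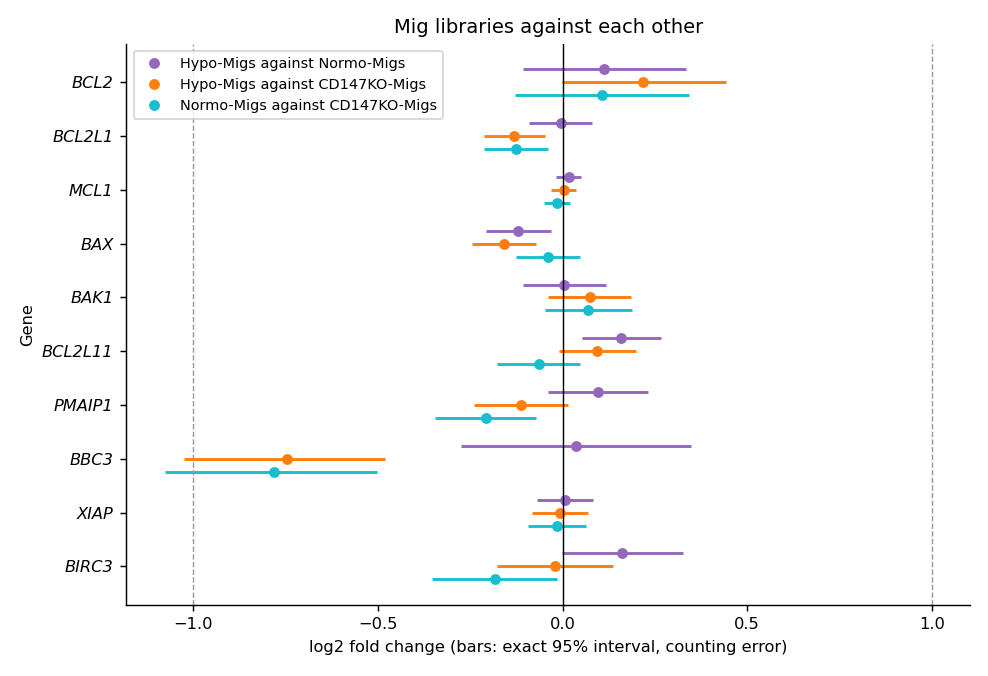
Log2 fold changes of the 10 genes in the 3 pairs of Mig libraries, with exact 95% intervals for counting error; dashed lines mark the fold criterion of 1. BBC3 lay at -0.74 and -0.78 in the pairs with CD147KO-Migs and at 0.04 in the pair without it, and all other values lay between -0.21 and 0.22.

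Levels of different genes were set beside each other per length, as FPKM. In the Mig libraries MCL1 (85.1 to 86.1 FPKM) was the highest, followed by BAX (21.3 to 23.8) and BCL2L1 (18.02 to 19.7), whose ranges did not overlap. BAK1 (14.9 to 15.7), PMAIP1 (10.6 to 12.3), XIAP (8.37 to 8.45) and BCL2L11 (5.47 to 6.11) came next, then BIRC3 (2.07 to 2.34) and BBC3 (1.45 to 2.51), which overlapped, and BCL2 (0.704 to 0.821) was the lowest. With PBS, BIRC3 took second place at 26.9 FPKM behind MCL1 at 82.7, and BCL2 was again the lowest at 0.509. BCL2 transcripts were thus under those of BCL2L1 and MCL1 in every library.

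Within a library, the ratio of FPKM of a survival gene to a pro-apoptotic gene does not depend on the scaling between libraries. BCL2L1 to BAX was 0.610 (0.568 to 0.655) with PBS and 0.779 (0.733 to 0.829), 0.844 (0.797 to 0.895) and 0.828 (0.780 to 0.878) with normo-Migs, hypo-Migs and CD147KO-Migs. BCL2L1 to BAK1 was 0.796 (0.736 to 0.861) with PBS and 1.15 (1.07 to 1.24), 1.15 (1.07 to 1.23) and 1.32 (1.23 to 1.42) with Migs. Both ratios were higher in every Mig library than with PBS, by more than the counting intervals.

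The ratios to BH3-only genes moved the other way for a pair of them. MCL1 to PMAIP1 was 9.88 (9.13 to 10.7) with PBS and 8.02 (7.47 to 8.62), 7.59 (7.13 to 8.09) and 7.01 (6.56 to 7.49) with Migs. BCL2 to BCL2L11 was 0.200 (0.169 to 0.234) with PBS and 0.139 (0.122 to 0.157), 0.134 (0.120 to 0.150) and 0.123 (0.108 to 0.140) with Migs. MCL1 to BBC3 instead separated the Mig libraries, which restates the BBC3 difference and its limits given above, as MCL1 was nearly level. The ratio was 34.6 (30.6 to 39.2) after PBS, 58.5 (50.01 to 68.8) after normo-Migs, 57.7 (50.1 to 66.9) after hypo-Migs and 34.2 (30.4 to 38.6) after CD147KO-Migs. MCL1 to BAK1 stayed between 5.405 and 5.75 in the 4 libraries, with overlapping intervals. BCL2 to BAX was 0.0255 (0.0220 to 0.0294) after PBS, 0.0327 (0.0289 to 0.0369) after normo-Migs, 0.0385 (0.0344 to 0.0428) after hypo-Migs and 0.0296 (0.0261 to 0.0334) after CD147KO-Migs. The interval with hypo-Migs lay above those with PBS and CD147KO-Migs and overlapped that with normo-Migs. These intervals cover counting error only and were not adjusted for the number of ratios compared. Between hypo-Migs and CD147KO-Migs, BCL2 alone did not pass the adjusted p. With a coefficient of variation of 0.1 assumed, BAX did not pass there either. A ratio of transcripts is not a ratio of proteins.

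**Figure D4:**
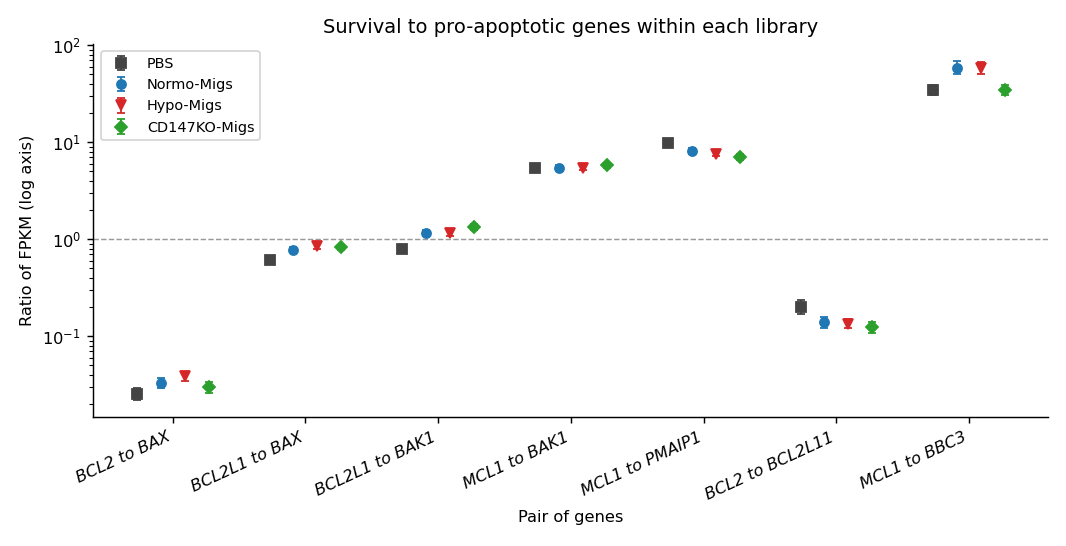
Ratio of FPKM of a survival gene to a pro-apoptotic gene (log axis) within each of the 4 libraries, with 95% intervals for counting error; the dashed line marks a ratio of 1. BCL2L1 to BAK1 lay at 0.796 with PBS and at 1.15 to 1.32 with Migs, and MCL1 to BBC3 at about one level with PBS and CD147KO-Migs, 34.6 and 34.2.

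Around the 10 genes, 77 other genes of the pathway in 10 lists were examined, of which 73 were tested and BCL2L10, BCL2A1, BIRC8 and FASLG were not. None of the 73 passed the criteria in any pair of Mig libraries by edgeR's exact binomial test, and 28, 31 and 23 passed the adjusted p alone for hypo-Migs against normo-Migs, hypo-Migs against CD147KO-Migs and normo-Migs against CD147KO-Migs. These were 38.4%, 42.5% and 31.5% of the 73, beside 24.7%, 25.2% and 24.8% of all genes tested. Against PBS, 13 passed the criteria after normo-Migs (7 higher, 6 lower), 14 after hypo-Migs (8 higher, 6 lower) and 15 after CD147KO-Migs (8 higher, 7 lower). These were 17.8%, 19.2% and 20.5% of the 73, beside 27.2%, 28.3% and 27.5% of all genes tested. The shares of all genes depend on genes with few reads. Against PBS, the shares given above for genes with at least 10 reads in both libraries were nearer to those of the 73. The median log2 fold change over the 73 genes was 0.14, 0.02 and 0.09 in the comparisons with PBS, beside 0.03, 0.04 and 0.03 over all genes.

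Among the 6 other pro-apoptotic BCL2 genes, 1 rose and 1 fell against PBS with each kind of Migs, and both are BH3-only genes. BMF, whose protein is tied to the cytoskeleton in healthy cells, had 4 reads with PBS and 98, 171 and 128 with normo-Migs, hypo-Migs and CD147KO-Migs (log2 4.65, 3.82 to 7.09, with hypo-Migs). BIK, whose protein lies at the endoplasmic reticulum, had 361 reads with PBS and 61, 59 and 80 with Migs (log2 -2.79, -3.25 to -2.43, with hypo-Migs). Of the 3 other survival genes, BCL2L2 alone was tested and had 900, 745, 880 and 808 reads. BMF thus had the sign of BCL2L11, and BIK that of BIRC3.

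Of the 5 other IAP genes tested, 1 passed with each kind of Migs, BIRC7, which had 2 reads with PBS and 17, 28 and 20 with Migs and is named after its values were seen. BIRC2 (cIAP1), the neighbour and closest relative of BIRC3, had 1961, 1746, 2260 and 1838 reads and did not pass. Among 7 released proteins and IAP antagonists, XAF1, an antagonist of XIAP, fell from 240 reads with PBS to 49, 53 and 51 with Migs (log2 -2.35, -2.85 to -1.96, with hypo-Migs). SEPT4, the gene of the XIAP antagonist ARTS, rose from 29 reads to 74, 79 and 112 (log2 1.18, 0.60 to 1.90, with hypo-Migs). The 4 docking proteins VDAC1, VDAC2, VDAC3 and MTCH2 did not reach the fold criterion.

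In the apoptosome and caspase list of 10 genes, CASP10, a caspase of death receptor complexes, fell from 286 reads with PBS to 90, 99 and 97 with Migs (log2 -1.73, -2.09 to -1.41, with hypo-Migs). In the list of death receptors, ligands and adaptors, TNFSF10, the gene of the death ligand TRAIL, rose from 7 reads to 979, 1275 and 1155 (log2 6.94, 6.24 to 8.61, with hypo-Migs). It was the widest difference of the 73 genes. TNFRSF10C, a TRAIL decoy receptor named after its values were seen, had 23 reads with PBS and 4, 7 and 2 with Migs, and passed in all 3 comparisons.

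Among 13 NF-kappaB and TRAF genes, NFKBIA, which encodes the inhibitor IkappaB-alpha, rose from 1754 reads with PBS to 4694, 5916 and 5422 with Migs (log2 1.54, 1.46 to 1.61, with hypo-Migs). NFKBIA is, like BIRC3, a known NF-kappaB target, and the 2 genes moved in opposite directions against PBS. By sign, 8, 9 and 8 of the 13 genes were lower with normo-Migs, hypo-Migs and CD147KO-Migs, and 5, 4 and 5 were higher. Among those lower in each were TNFAIP3 (1422 reads with PBS and 984, 1205 and 924 with Migs) and NFKB2 (4874 and 3245, 3946 and 3331). Besides NFKBIA, those higher in each included BCL3 (1068 and 1595, 1984 and 1921) and MAP3K14 (1048 and 1423, 1512 and 1679). TNFAIP3, NFKB2, BCL3 and MAP3K14 are named after their values were seen. The share of all genes with each sign was not counted. Any part of NF-kappaB in these values was not tested. RELB, a subunit of the non-canonical NF-kappaB dimer, had 523 reads with PBS and 265, 313 and 256 with Migs and is named after its values were seen. It passed the criteria with CD147KO-Migs only (log2 -1.05, -1.27 to -0.83), but lay just short of the fold criterion with normo-Migs (-0.96) and hypo-Migs (-0.95). The median of the 13 genes was -0.25, -0.27 and -0.29 with normo-Migs, hypo-Migs and CD147KO-Migs.

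Among 12 transcription factors and ubiquitin enzymes that act on the family, TP73, a transcription factor, rose from 43 reads with PBS to 503, 500 and 537 with Migs (log2 3.27, 2.87 to 3.81, with hypo-Migs). FOXO4, a forkhead factor, rose from 208 to 772, 972 and 867 reads (log2 2.00, 1.79 to 2.23, with hypo-Migs). TRIM17, a ubiquitin ligase of MCL1, fell from 93 to 36, 46 and 33 reads (log2 -1.19, -1.78 to -0.71, with hypo-Migs). In the less typical relatives, BCL2L15 had 17 reads with PBS and 23, 49 and 35 with Migs and passed with hypo-Migs only (log2 1.22, 0.49 to 2.20), named after its values were seen. Its log2 fold change was 0.41 with normo-Migs and 0.94, just short of the fold criterion, with CD147KO-Migs. Whether these genes differed between kinds of Migs was tested only in the pairs of Mig libraries, where none passed.

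**Figure D5:**
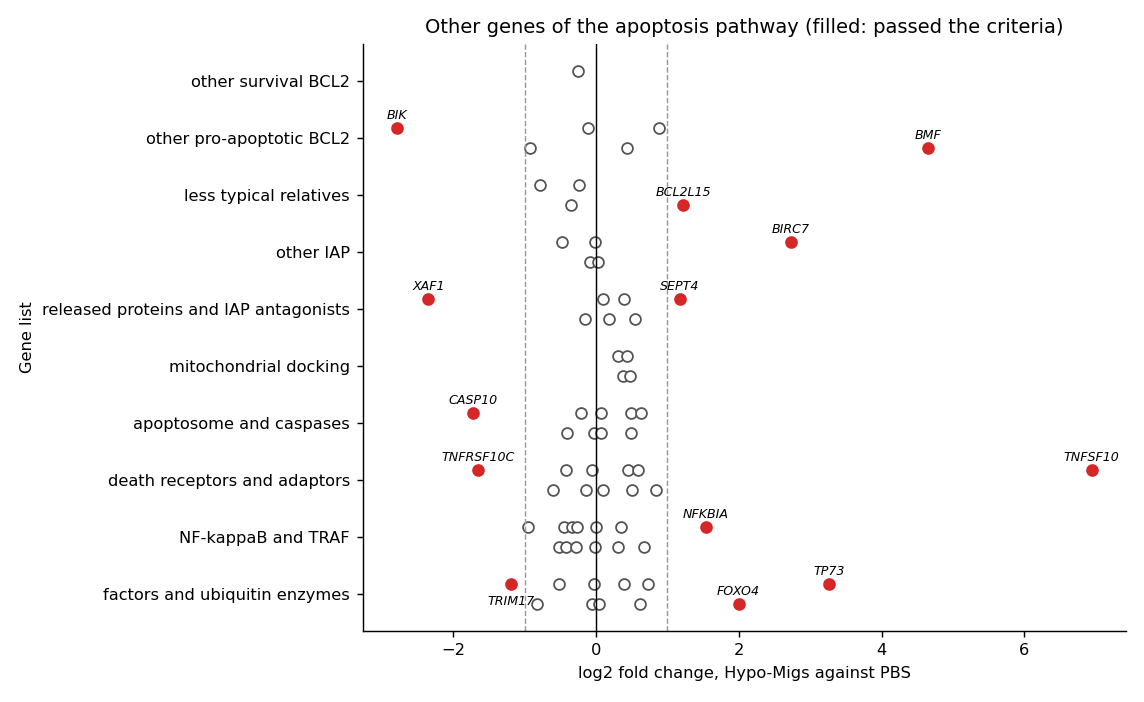
Log2 fold change between hypo-Migs and PBS of 71 of the 73 other pathway genes tested, 1 point per gene, by list; filled points passed the criteria, and dashed lines mark the fold criterion of 1. Filled points lay on both sides, 8 higher and 5 lower, from BIK at -2.79 to TNFSF10 at 6.94.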

How the data were processed

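RNA-seq of 4 libraries of MHCC-97H cells, 1 per condition, was used. The authors deposited raw counts of reads per gene, not normalized, and FPKM. For FPKM, the authors divided the reads by gene length and by a scaled library size. That size was 1.021, 0.9945, 1.005 and 1.009 times the total reads on genes for PBS, normo-Migs, hypo-Migs and CD147KO-Migs. Per the submitters' processing notes, CASAVA 1.8, fastp, HISAT2 2.0.5, featureCounts 1.5.0-p3 and the build hg38 were used; the labels name a SMARTER mRNA kit, and the supplementary methods describe poly-T selection. The handling of strands is not given in the sources used here. Coordinates of the 10 genes are those of the deposited table and were identical in GENCODE 29.

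Counts were analysed with R 4.3.3, edgeR 4.0.16 and DESeq2 1.42.0, whereas Python 3.11.15 (pandas 2.3.3, numpy 2.4.6, matplotlib 3.10.9) served for sequences and plots. A gene was tested if any library held 10 or more of its reads (19895 genes). TMM factors were 1.02, 0.986, 0.996 and 0.999 for PBS, normo-Migs, hypo-Migs and CD147KO-Migs, and the prior count for log2 fold changes was 2. The test for a pair of libraries was binomTest of edgeR, two-sided and exact, adjusted by Benjamini-Hochberg over the genes tested, because a single library per condition leaves quasi-likelihood tests and DESeq2 without residual degrees of freedom. Intervals of fold changes and of ratios of FPKM are exact 95% binomial intervals, those of CPM are 95% Wilson intervals. The test and its intervals were tested on simulated data that held counting error only, so variation between replicates was not covered. Results of some genes of the lists are counted but not reported here.

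The 10 genes and the lists were chosen with earlier results of these data known. By rule, named genes were the 10, each list gene past the criteria between Mig libraries, and up to 4 further genes per list. The latter had the largest change between hypo-Migs and PBS among those past the criteria with at least 50 reads in 1 of the 2 libraries. Other list genes are named outside this rule. They include BIRC2, BCL2L2, MTCH2, the VDAC genes and those marked as named after their values were seen. The alternatives changed the scaling, the read filter, the prior count or the unit (log2(FPKM + 1), log2(FPKM + 0.1)), assumed a coefficient of variation of 0.1 or 0.4, ran DESeq2 over the 4 libraries, or used the fold alone. Scaling the 3 Mig libraries alone was added after seeing the data.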

Additional observations from a re-analysis of the deposited data

How the results depend on the processing

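No paired analysis was possible because each condition had 1 library; for the same reason no replicate could be left out. Between Mig libraries, 0 of the 10 genes passed the criteria under every alternative, which included scaling the 3 Mig libraries alone. Against PBS, the count of 2 fell to 1 with normo-Migs and with CD147KO-Migs for the fold of log2(FPKM + 1), to 1 in all 3 comparisons with an assumed coefficient of variation of 0.4, and to 0 in all 3 with DESeq2 over the 4 libraries, which takes different conditions as replicates. BIRC3 remained in the first 2 of these, and BCL2L11 did not. DESeq2 called 0 of all genes tested in every pair, with 1246 to 1296 at an unadjusted p under 0.05 against PBS and 1 to 7 between Mig libraries. No called value changed sign under any alternative. Of the log2 fold changes of the 10 genes under alternatives, 620 stayed within the counting interval and 10 left it, of which all but that of MCL1 for normo-Migs came with log2(FPKM + 1), which takes BCL2L11 to 0.87, 1.002 and 0.92. The share of all genes past the criteria depends on the processing. For hypo-Migs against normo-Migs, 975 genes passed, 327 with at least 10 reads in both libraries, 259 and 0 with coefficients of variation of 0.1 and 0.4, 56 with the fold of log2(FPKM + 1) and 1858 with the fold alone; against CD147KO-Migs, 1003 became 329, 228, 1, 80 and 1814, and for normo-Migs against CD147KO-Migs, 977 became 328, 281, 2, 66 and 1928. Against PBS, 5415, 5636 and 5463 genes passed with normo-Migs, hypo-Migs and CD147KO-Migs, and 2764, 2924 and 2855 with at least 10 reads in both libraries, 1535, 1633 and 1575 with a coefficient of 0.4, and 1619, 1674 and 1658 with log2(FPKM + 1). Depth limits BCL2 and BBC3 most, with 159 to 391 reads per library.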
